A study of Mus musculus with 10 samples.

Results

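The genes described here encode 10 proteins that sit on lipid droplets or govern their breakdown: the perilipins Plin2, Plin3, Plin4 and Plin5, the CIDE proteins Cidea, Cideb and Cidec, the lipase Pnpla2, its co-activator Abhd5 and its inhibitor G0s2. They were taken by symbol from the 55291 genes of the bulk RNA-seq count table of mouse liver, and all 10 are in it. All mice were females of 16 to 20 weeks with a Cas9 gene behind a loxP-flanked stop cassette, and all received an AAV8 virus that carries a guide RNA and a Cre recombinase under the hepatocyte promoter Tbg. The design thus directs editing to hepatocytes, bulk liver also holds other cells, and editing by cell type was not analysed here. The guide was either non-targeting (NTC) or directed at Bap1 (sgBap1), which encodes a deubiquitinase. After 10 days the mice were injected with carbon tetrachloride (CCl4) in olive oil, a solvent that hepatocytes turn into a toxic radical, or with olive oil alone (Veh), and the liver was taken 48 hours later. Each vehicle group had 2 mice and each CCl4 group 3, 1 library per mouse, and the comparisons ask what the guide and the injury each change and whether the guide alters the response to injury.

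A lipid droplet is a core of triglyceride and cholesteryl ester under a layer of phospholipid, and its surface proteins set how much of the core is exposed to lipases. Plin2 is the main perilipin of hepatocytes and follows their fat content, Plin3 moves between cytosol and new droplets, Plin4 is abundant in fat cells, and Plin5 links droplets to mitochondria in oxidative tissues. Cideb is the CIDE protein of normal liver, where it also serves in the lipidation of very-low-density lipoprotein, whereas Cidea and Cidec fuse droplets into larger ones and are typical of fat cells and of fatty liver. Pnpla2, also called ATGL, makes the first cut in triglyceride, Abhd5 (CGI-58) activates it, and G0s2 blocks it.

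Values are CPM, each gene's count scaled to a library of 1e+06 counts, after TMM scaling, a correction for differences in library composition. The libraries held 3.30e+07 to 5.22e+07 estimated counts, so that 3 counts, taken as the floor of detection, equal 0.0511 to 0.112 CPM, a limit that covers counting error alone. Bap1 itself was at 34.8 CPM in both NTC-Veh mice and at 17.5 and 19.5 CPM in the sgBap1-Veh mice. With CCl4 it was at 29.5 to 31.5 CPM in NTC and 17.0 to 21.8 CPM in sgBap1 mice, so that every library matched its guide label. The hepatocyte markers Alb, Ttr, Apoa1, Hnf4a and Cps1 summed to 102192 to 143967 CPM in the vehicle mice and to 63839 to 81863 CPM in the CCl4 mice. In bulk tissue, fewer cells of a type and less RNA per cell cannot be told apart. All p-values measure the spread between these mice.

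1 library was known from earlier results of these data to stand apart. The liver of sgBap1-CCl4 replicate 2 carried fat-cell transcripts: Adipoq was at 36.4 CPM, Plin1 at 34.5, Retn at 17.7, Cfd at 144, Acvr1c at 3.68 and Lep at 0.291 CPM. In the other 9 mice none of these 6 genes had more than 5 counts. Ucp1, the uncoupling protein of brown fat cells, was at 83.9 CPM in this mouse and at most at 0.0188 CPM elsewhere. The remaining listed fat-cell marker, Adrb3, was at 11.0 CPM in it, 7.25 times the mean of the other sgBap1-CCl4 mice, while the other CCl4 mice lay at 0.781 to 2.21 CPM and the vehicle mice at 7.89 to 12.2 CPM. The 7 fat-cell markers summed to 248 CPM in this liver and to 0.807 to 12.3 CPM in the other 9. Several of the lipid droplet genes are themselves expressed by fat cells, so the fits of the lipid droplet genes with CCl4, Cidea aside, are given for all 10 mice and for the 9 without this mouse.

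**Figure D1:**
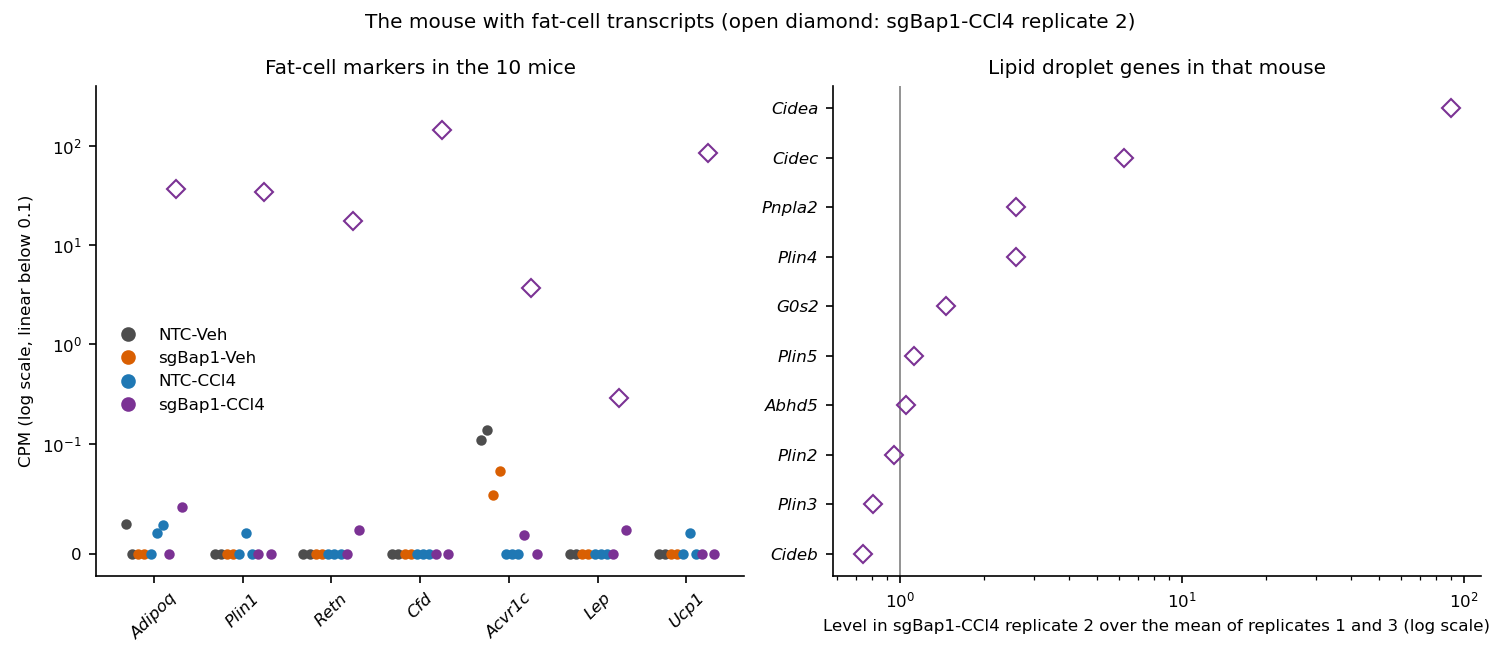
Left, CPM of Adipoq, Plin1, Retn, Cfd, Acvr1c, Lep and Ucp1 in the 10 mice (log scale, linear below 0.1), with the 4 groups by colour and sgBap1-CCl4 replicate 2 as an open diamond; right, the level of each lipid droplet gene in that mouse over the mean of sgBap1-CCl4 replicates 1 and 3 (log scale), where the line marks equal levels. The diamond lies far above the other mice for each marker, and Cidea (90.3-fold), Cidec (6.24-fold), Pnpla2 (2.58-fold) and Plin4 (2.58-fold) are the lipid droplet genes furthest to the right.

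Relative to the mean of the other sgBap1-CCl4 mice, this liver had 90.3 times as much Cidea, 6.24 times as much Cidec, 2.58 times as much Pnpla2 and 2.58 times as much Plin4. G0s2 was at 1.46 times, Plin5 at 1.13 times and Abhd5 at 1.05 times their mean. Plin2 (0.953 times), Plin3 (0.805 times) and Cideb (0.739 times) were not above it. Cidea, Cidec, Pnpla2 and Plin4 are therefore the genes for which the fits with 10 and 9 mice have to be read side by side. Fat-cell RNA as the source of these 4 excesses was not tested.

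The promoters of Plin2, Cidec, Plin4 and Plin5 are printed because Plin2 and Cidec rose with CCl4, while Plin4 and Plin5 are neighbours on chromosome 17 that moved differently. RefSeq (GRCm38.p6) has a promoter entry for 9 of the 10 genes. Each line gives the 250 bases before the outermost start, 5′ to 3′, and capitals mark the hexamer AGGTCA or its reverse complement, to which many nuclear receptors bind. These lie on the minus strand at chr4:86670060-86670309 for Plin2, chr6:113435761-113436010 for Cidec, chr17:56109783-56110032 for Plin4 and chr17:56117549-56117798 for Plin5.
Plin2: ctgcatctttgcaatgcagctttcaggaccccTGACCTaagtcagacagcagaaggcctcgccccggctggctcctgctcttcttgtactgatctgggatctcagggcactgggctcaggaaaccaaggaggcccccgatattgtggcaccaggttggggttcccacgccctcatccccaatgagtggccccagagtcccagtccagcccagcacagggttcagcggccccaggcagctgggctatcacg
Cidec: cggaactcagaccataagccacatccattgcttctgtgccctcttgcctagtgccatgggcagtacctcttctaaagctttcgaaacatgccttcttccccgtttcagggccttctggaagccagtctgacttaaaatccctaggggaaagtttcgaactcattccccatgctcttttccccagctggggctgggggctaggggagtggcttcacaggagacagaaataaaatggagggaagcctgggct
Plin4: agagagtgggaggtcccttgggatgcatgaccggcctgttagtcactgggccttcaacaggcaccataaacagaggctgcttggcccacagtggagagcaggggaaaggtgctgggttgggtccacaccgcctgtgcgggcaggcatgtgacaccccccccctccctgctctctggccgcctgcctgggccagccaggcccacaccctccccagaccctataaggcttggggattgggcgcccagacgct
Plin5: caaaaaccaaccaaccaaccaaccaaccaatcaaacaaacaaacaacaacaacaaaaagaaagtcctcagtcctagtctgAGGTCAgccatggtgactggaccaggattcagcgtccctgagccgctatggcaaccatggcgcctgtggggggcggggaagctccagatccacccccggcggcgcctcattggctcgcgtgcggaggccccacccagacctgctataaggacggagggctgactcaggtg
The hexamer was found on either strand in 3 of the 9 windows, those of Plin2 (218 bases before the start), Plin5 (170) and Abhd5 (69), and in 14.0% of the windows of all 32851 RefSeq promoter entries. The paired form, 2 copies of AGGNCA 1 base apart with N for any base, as PPAR receptors use it, was in none of the 9 and in 0.338% of all windows. These matches describe letters in a window and say nothing about binding.

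Compared per kilobase of exon in GENCODE vM21, the level of these genes spanned a wide range in untreated liver. In the NTC-Veh mice Cideb led with a mean of 189 CPM per kb, followed by Plin2 (149), G0s2 (31.8), Pnpla2 (28.3), Plin5 (13.3), Plin3 (10.8), Abhd5 (5.96), Plin4 (0.862), Cidec (0.452) and Cidea (0.0619). Of these neighbours, G0s2 and Pnpla2 overlapped between the mice of the group. In the NTC-CCl4 mice the order at the top was turned, with Plin2 at 301 and Cideb at 80.8 CPM per kb, and the same 2 genes led in the sgBap1-CCl4 mice (307 and 85.1). Plin2 made up 83.2% to 88.2% of the 4 perilipins per kilobase in the vehicle mice and 90.4% to 93.2% in the CCl4 mice, with no overlap.

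**Figure D2:**
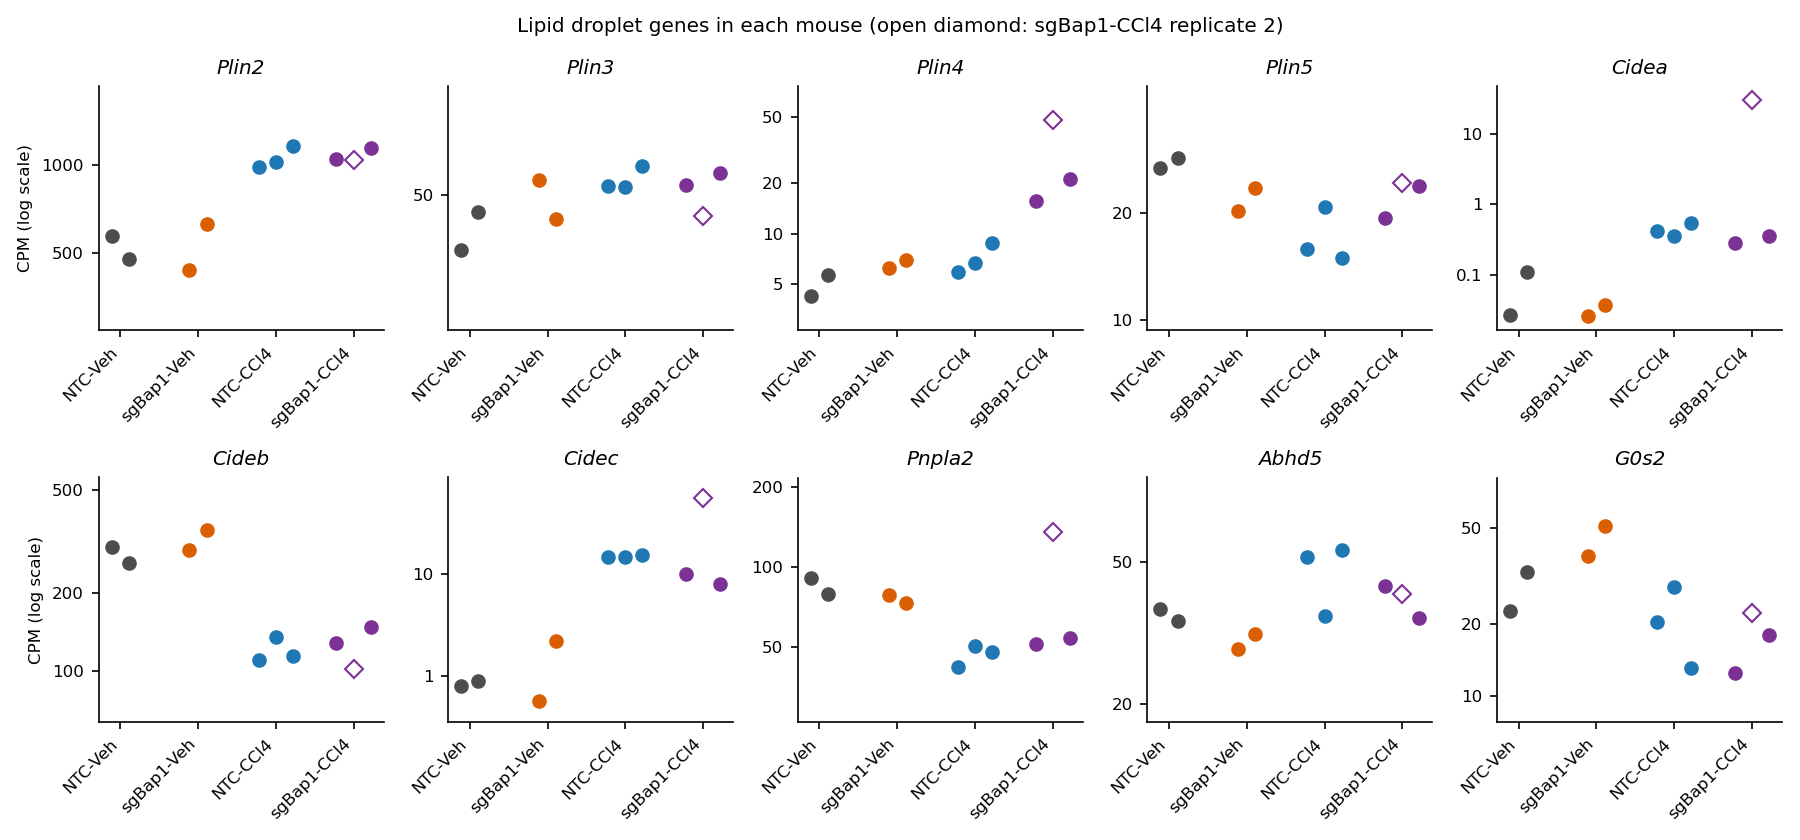
CPM (log scale) of each of the 10 lipid droplet genes, 1 panel per gene, with a point for each mouse in the 4 groups and an open diamond for sgBap1-CCl4 replicate 2. Plin2 and Cidec are higher and Cideb is lower in every CCl4 mouse than in any vehicle mouse, and the diamond lies apart for Cidea, Cidec, Plin4 and Pnpla2.

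CCl4 raised Plin2 and Cidec and lowered Cideb in both genotypes, with 10 mice and with 9. With 10 mice the other calls were each made in 1 genotype, and with 9 mice Pnpla2 was also called lower in both, while the test of a difference between genotypes, the interaction described further on, called 0 of the 10 genes. In NTC mice 5 genes passed an adjusted p under 0.05, Plin2, Plin3 and Cidec upwards and Plin5 and Cideb downwards. Of all 17015 genes tested, 27.5% were called higher and 26.3% lower, so the share of lipid droplet genes called is close to that of all genes. In sgBap1 mice 5 were also called, Plin2, Plin4 and Cidec higher and Cideb and G0s2 lower, against 29.0% and 27.7% of all genes. Cidea, which passed the filter on low counts through the CCl4 mice, is left out of the counts and medians that follow. With the 9 mice, 6 of the other 9 genes were called in each genotype. These were Plin2, Plin3 and Cidec higher and Plin5, Cideb and Pnpla2 lower in NTC mice, where 28.2% and 27.0% of all 16825 genes tested were called higher and lower. In sgBap1 mice they were Plin2, Plin4 and Cidec higher and Cideb, Pnpla2 and G0s2 lower, where the shares were 26.4% and 25.6%. With 10 mice the median log2 fold change over these 9 genes was 0.40 in NTC mice and 0.08 in sgBap1 mice, against 0.03 and 0.04 over all genes tested. When libraries were scaled by their size alone, the calls over all genes in NTC mice turned from 4679 higher and 4472 lower to 8462 higher and 2030 lower, and the median of all genes rose to 0.50.

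Among the perilipins, Plin2 (ENSMUSG00000028494.12, chromosome 4 from 86648386 to 86670060 in GRCm38, the build of all positions here) was the most abundant. It was at 572 and 478 CPM in the NTC-Veh mice, at 436 and 631 CPM in the sgBap1-Veh mice, at 984, 1020.0 and 1164 CPM in the NTC-CCl4 mice and at 1046, 1043 and 1142 CPM in the sgBap1-CCl4 mice. Every CCl4 mouse was above every vehicle mouse, and within each treatment the genotypes overlapped. Plin2 thus rose 2.01-fold in NTC mice (log2 fold change 1.01, SE 0.17, adjusted p = 0.000661) and 2.02-fold in sgBap1 mice (1.01, SE 0.17, adjusted p = 0.000604). The guide itself changed it by 0.02 (SE 0.18) with vehicle and by 0.03 (SE 0.15) with CCl4 on the log2 scale, with adjusted p of 0.983 and 0.961. With 9 mice Plin2 rose by 1.01 in NTC mice (adjusted p = 0.000481) and by 1.04 in sgBap1 mice (adjusted p = 0.000756), and the guide with CCl4 gave 0.05 (adjusted p = 0.951). With 2 SE on either side, the fold of the guide with CCl4 lay between 0.83 and 1.25 with 10 mice. Macrophages also express Plin2, and the macrophage markers Adgre1, Cd68, Clec4f and Lyz2 summed to 120 to 170 CPM in NTC-Veh, 239 to 325 in sgBap1-Veh and 516 to 697 in the CCl4 mice. With CCl4, Cd68 and Lyz2 were called higher in both genotypes. Adgre1 was called higher in NTC mice (log2 1.85) and not in sgBap1 mice (0.44). Clec4f went the other way, at -0.25 in NTC mice, not called, and at -1.29 in sgBap1 mice, called lower (adjusted p = 0.00169). The part of macrophages in the rise of Plin2 was not tested.

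Plin3 (ENSMUSG00000024197.10, chromosome 17 from 56277476 to 56292873) was at 36.2 and 45.3 CPM in NTC-Veh, 54.4 and 43.4 CPM in sgBap1-Veh, 52.7, 52.2 and 59.1 in NTC-CCl4 and 52.9, 44.1 and 56.7 CPM in sgBap1-CCl4 mice. The NTC-CCl4 mice were all above the NTC-Veh mice, whereas the sgBap1 groups overlapped. It rose 1.34-fold in NTC mice (log2 0.42, SE 0.14, adjusted p = 0.0285). This call was lost without NTC-Veh replicate 1 (log2 0.27, adjusted p = 0.240) and without NTC-CCl4 replicate 3 (log2 0.37, adjusted p = 0.0831). In sgBap1 mice the log2 fold change was 0.07 (SE 0.14, adjusted p = 0.716), and with library size alone it was 0.54 and called (adjusted p = 0.00882). With 9 mice the values were 0.43 (adjusted p = 0.0153) in NTC mice and 0.16 (adjusted p = 0.342) in sgBap1 mice. The guide with CCl4 gave -0.09 with 10 mice (adjusted p = 0.799) and 0.00 with 9 (adjusted p = 0.997).

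Plin4 (ENSMUSG00000002831.13, chromosome 17 from 56100591 to 56109803) was the one lipid droplet gene that any fit called for the guide in injured liver. It was at 4.27 and 5.68 CPM in NTC-Veh, 6.22 and 7.0 CPM in sgBap1-Veh and 5.91, 6.71 and 8.77 CPM in NTC-CCl4 mice. In sgBap1-CCl4 mice it was at 15.8, 47.6 and 21.1 CPM, the 47.6 being the mouse with fat-cell transcripts. Without that mouse the lower of the other values, 15.8 CPM, was still above the highest of the other groups, 8.77 CPM. The numbers of reads behind these values were 927 and 993 counts in sgBap1-CCl4 replicates 1 and 3 and 277 to 357 in the NTC-CCl4 mice. The 7 fat-cell markers summed to 0.851 and 2.30 CPM in replicates 1 and 3 and to 0.807 to 1.62 CPM in the NTC-CCl4 mice. The part of fat-cell RNA in the Plin4 level of these mice was not tested. Over all 10 mice the difference between sgBap1-CCl4 and NTC-CCl4 was 1.99 on the log2 scale (SE 0.39) and missed the threshold (adjusted p = 0.0964), and over the 9 mice it was 1.37 (SE 0.19), a 2.59-fold rise that passed it (adjusted p = 0.0371). DESeq2's Wald test called Plin4 higher with 10 mice (1.98, adjusted p = 2.99e-06) and with 9 (1.38, adjusted p = 4.92e-07), the latter being a fit added after the values were seen. It was not called in the remaining alternatives, with adjusted p of up to 0.395.

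The response of Plin4 to CCl4 also differed in size between the genotypes, but this difference was not called. In sgBap1 mice it rose by 2.09 (SE 0.47, adjusted p = 0.00532) with all mice and by 1.48 (SE 0.22, adjusted p = 0.000354) with 9, and in NTC mice the value was 0.51 (SE 0.46, adjusted p = 0.381) and 0.52 (SE 0.21, adjusted p = 0.0588), all on the log2 scale. The interaction, the response in sgBap1 minus that in NTC mice, was 1.58 (SE 0.64, adjusted p = 0.434) with 10 mice and 0.97 (SE 0.30, adjusted p = 0.252) with 9. With vehicle the guide gave 0.41 (SE 0.51, adjusted p = 0.826). Plin4 shares 17 exon bases with Hdgfl2 on the other strand, 0.294% of its exon length, and Hdgfl2 ranged from 33.2 to 41.0 CPM over all mice.

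Plin5 (ENSMUSG00000011305.11, chromosome 17 from 56111601 to 56117596), which lies 1797 bases from Plin4 on the same strand, followed another course. It was at 26.9 and 28.6 CPM in NTC-Veh, 20.2 and 23.6 CPM in sgBap1-Veh, 15.9, 20.8 and 15.0 in NTC-CCl4 and 19.3, 24.4 and 23.9 CPM in sgBap1-CCl4 mice. CCl4 lowered it in NTC mice by 0.69 on the log2 scale (SE 0.15, adjusted p = 0.00321), with no overlap, and the value in sgBap1 mice was 0.04 (SE 0.15, adjusted p = 0.831). The interaction of 0.73 (SE 0.22) had an unadjusted p of 0.00701 and an adjusted p of 0.236, so that a different response of the genotypes was not called. The sgBap1-Veh mice were both below the NTC-Veh mice (log2 -0.34, SE 0.17, adjusted p = 0.446), and with CCl4 the guide gave 0.39 (SE 0.14, adjusted p = 0.261). With 9 mice the values were -0.68 in NTC mice (adjusted p = 0.00327), -0.02 in sgBap1 mice (adjusted p = 0.939), 0.67 for the interaction (adjusted p = 0.295) and 0.33 for the guide with CCl4 (adjusted p = 0.519). When libraries were scaled by size alone, the value in NTC mice was -0.22 and was not called (adjusted p = 0.273), and that in sgBap1 mice was 0.53 and was called higher (adjusted p = 0.0170).

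Within each mouse, where no scaling enters, the ratio of Plin4 to Plin5 per kilobase was 0.0575 and 0.0718 in NTC-Veh, 0.111 and 0.107 in sgBap1-Veh and 0.135, 0.117 and 0.212 in NTC-CCl4 mice. It was 0.295, 0.705 and 0.319 in sgBap1-CCl4 mice, above all others with or without the mouse with fat-cell transcripts. The ratio of Plin2 to Plin5 rose from 9.94 to 15.9 in the 4 vehicle mice to 25.4 to 46.2 in the 6 CCl4 mice.

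**Figure D3:**
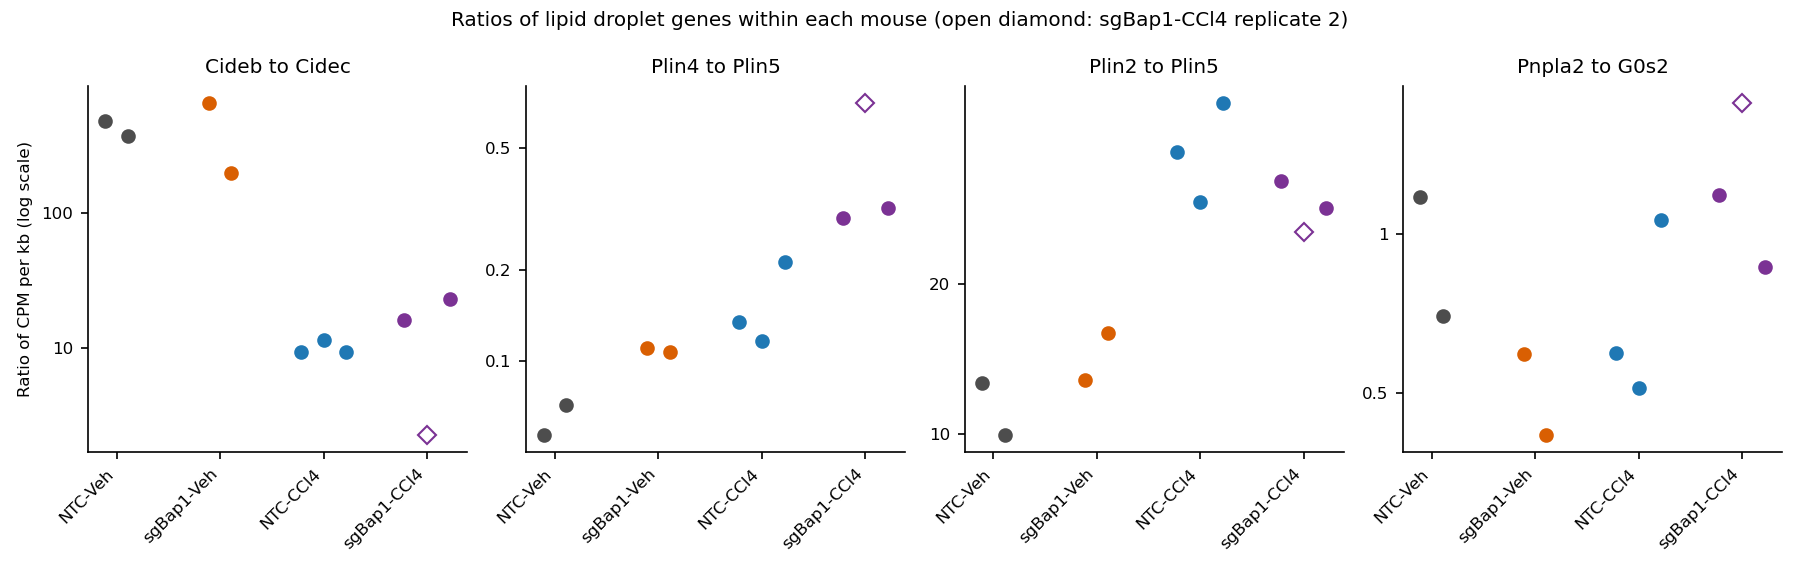
Ratios of the levels per kilobase of 2 lipid droplet genes within each mouse (log scale) by group, with an open diamond for sgBap1-CCl4 replicate 2. Cideb to Cidec falls from 197 or more in the vehicle mice to 23.0 or less in the CCl4 mice, Plin4 to Plin5 is highest in the 3 sgBap1-CCl4 mice, Plin2 to Plin5 is at least 25.4 in every CCl4 mouse, and Pnpla2 to G0s2 overlaps between most groups.

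The CIDE genes moved in opposite directions under CCl4, with Cidec rising and Cideb falling. Cidec (ENSMUSG00000030278.11, chromosome 6 from 113424634 to 113435760) was low without injury, at 0.790 and 0.887 CPM in the NTC-Veh mice and 0.565 and 2.21 CPM in those with the Bap1 guide, from 21 to 59 counts. It was at 14.8, 14.7 and 15.4 CPM in NTC-CCl4 mice and at 9.98, 56.3 and 8.06 CPM in sgBap1-CCl4 mice, so that every CCl4 mouse was above every vehicle mouse. In NTC mice it rose 17.8-fold (log2 4.16, SE 1.14, adjusted p = 0.0177), and the SE was 0.44 in the fit of 9 mice (4.16, adjusted p = 7.22e-05). In sgBap1 mice it rose by 4.24 (SE 1.11, adjusted p = 0.0137) with all mice and by 2.77 (SE 0.43, adjusted p = 0.000861) without the mouse with fat-cell transcripts, which is 18.9-fold and 6.84-fold. The call in NTC mice was lost without NTC-Veh replicate 1, at 4.07 (adjusted p = 0.0895), and without replicate 2, at 4.24 (adjusted p = 0.0871). The call in sgBap1 mice was lost without sgBap1-Veh replicate 1, at 3.49 (adjusted p = 0.0910), and held without replicate 2, at 5.45.

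Between the genotypes the sign of the Cidec difference depended on that 1 mouse. With CCl4 the guide gave 0.73 (SE 0.74, adjusted p = 0.723) with 10 mice and -0.73 (SE 0.33, adjusted p = 0.528) with 9, where replicates 1 and 3 at 9.98 and 8.06 CPM were both below the lowest NTC-CCl4 mouse at 14.7 CPM. The interaction was 0.09 (SE 1.62) with 10 mice and -1.38 (SE 0.61) with 9, with adjusted p of 0.996 and 0.474. No difference between genotypes was called for Cidec in any fit run.

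Cideb (ENSMUSG00000022219.10, chromosome 14 from 55754050 to 55758458) was at 302 and 261 CPM in NTC-Veh, 294 and 349 CPM in sgBap1-Veh, 111, 136 and 114 in NTC-CCl4 and 129, 102 and 148 CPM in sgBap1-CCl4 mice. All CCl4 mice were below all vehicle mice, and the genotypes overlapped within each treatment. The gene fell by 1.23 on the log2 scale in NTC mice (SE 0.16, adjusted p = 0.000119) and by 1.35 in sgBap1 mice (SE 0.16, adjusted p = 6.05e-05), and by 1.22 and 1.21 with 9 mice. The guide with CCl4 gave 0.07 with 10 mice (adjusted p = 0.876) and 0.21 with 9 (adjusted p = 0.654). The fall was called in all alternatives, down to 0.75 and 0.87 with library size alone. The sum of the hepatocyte markers given above, which is mostly Alb, was also lower in every CCl4 mouse. In NTC mice Alb (-0.76), Ttr (-0.67), Apoa1 (-0.99) and Cps1 (-1.76) were called lower and Hnf4a (-0.25) was not called. In sgBap1 mice Cps1 (-1.41) was called, and Alb (-0.42), Ttr (-0.56), Apoa1 (-0.57) and Hnf4a (-0.21) were not. The part of hepatocyte content in the fall of Cideb was not tested. Of the exon bases of Cideb, 76.3% are shared with Nop9 on the other strand, and the strand setting of the counting is not given in the sources used here. Nop9 was at 18.3 to 20.7 CPM in the vehicle mice and, unlike Cideb, above that in every CCl4 mouse, at 21.2 to 24.5 CPM.

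Cidea (ENSMUSG00000024526.9, chromosome 18 from 67343604 to 67367785) was near the limit of detection in liver. The vehicle mice had 1 and 4 counts (NTC) and 1 and 1 (sgBap1), the NTC-CCl4 mice 20, 19 and 21, and the sgBap1-CCl4 mice 17, 1717 and 17, which is 0.289, 29.4 and 0.361 CPM. The gene passed the filter on low counts through the CCl4 mice, so no fitted fold change and no call is given for its response to CCl4. Relative to library size after TMM scaling, summed counts were 6.31 times as high in NTC-CCl4 as in NTC-Veh mice (95% counting interval 2.56 to 20.1, exact binomial). In sgBap1-CCl4 replicates 1 and 3 they were 10.3 times the sgBap1-Veh level (2.63 to 88.2) and 0.742 times the NTC-CCl4 level (0.472 to 1.15). These intervals cover counting error, leave out the spread between mice and are not read as a test of the response to CCl4.

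Per kilobase, Cideb made up 99.5% to 99.8% of the 3 CIDE genes in the vehicle mice and 89.7% to 95.5% in the CCl4 mice other than the one with fat-cell transcripts. In that liver Cideb was at 54.8%, Cidec at 24.2% and Cidea at 21.0%. The ratio of Cideb to Cidec was 477 and 367 in NTC-Veh, 650 and 197 in sgBap1-Veh and 9.31, 11.5 and 9.25 in NTC-CCl4 mice. In sgBap1-CCl4 replicates 1 and 3 it was 16.1 and 23.0, above all NTC-CCl4 mice, and in replicate 2 it was 2.27, below them.

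**Figure D4:**
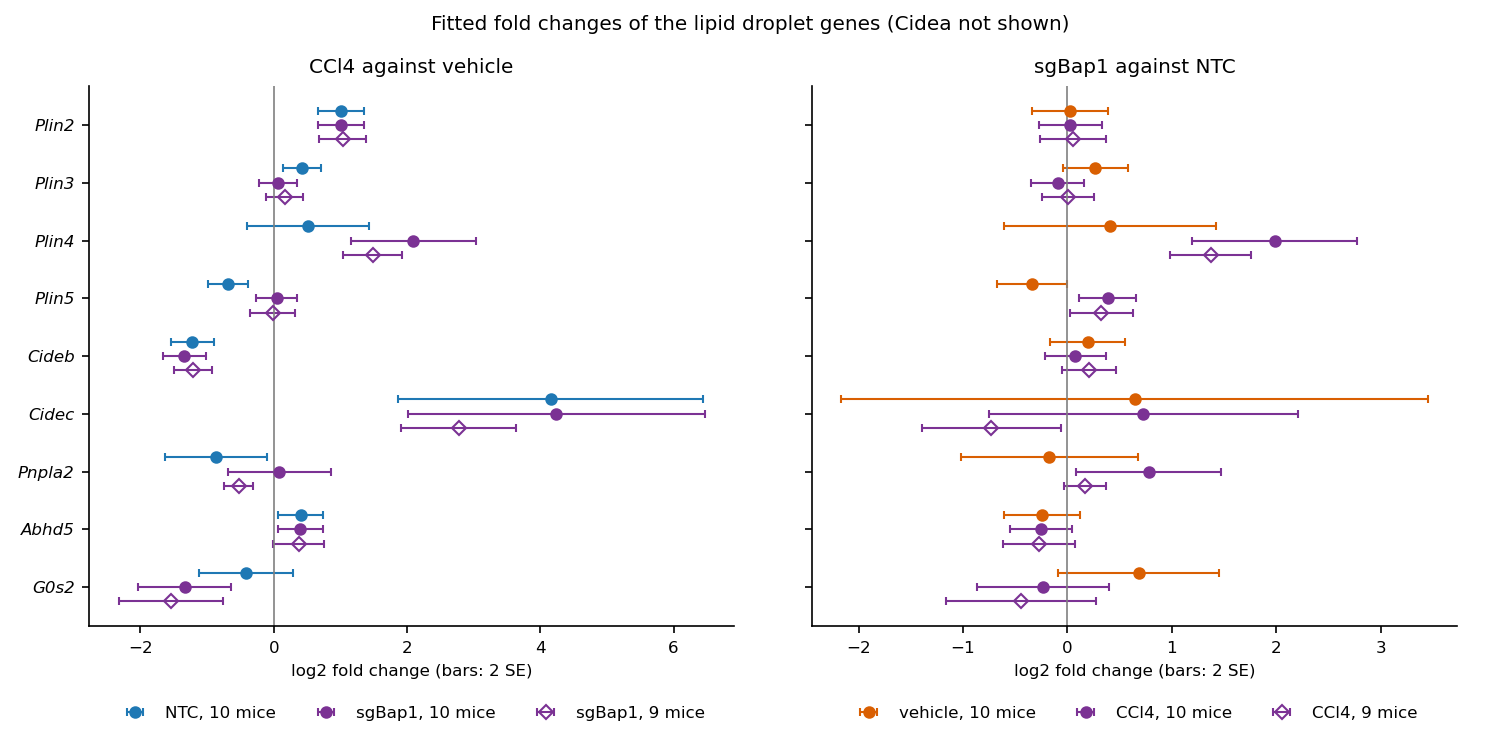
Fitted log2 fold changes of CCl4 against vehicle (left) and of sgBap1 against NTC (right), 1 row per gene without Cidea, with bars of 2 SE on either side. Filled circles are the fit of all 10 mice and open diamonds that of the 9 without sgBap1-CCl4 replicate 2. On the left, where the NTC mice are shown for the 10-mouse fit, Plin2 and Cidec lie to the right of 0 and Cideb to the left of it in both genotypes, and on the right the bars of Plin4 and Plin5 with CCl4 lie clear of 0 in both fits, with Plin4 the further of them.

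The 3 genes of triglyceride lipolysis gave fewer calls. Pnpla2 (ENSMUSG00000025509.15, chromosome 7 from 141455198 to 141460743) was at 91.5 and 79.6 CPM in NTC-Veh, 78.3 and 73.5 CPM in sgBap1-Veh, 42.0, 50.7 and 47.9 in NTC-CCl4 and 51.3, 136 and 53.9 CPM in sgBap1-CCl4 mice. Apart from the mouse with fat-cell transcripts, at 136 CPM, all CCl4 mice were below all vehicle mice. With 10 mice the values were -0.87 (SE 0.38, adjusted p = 0.0888) in NTC and 0.08 (SE 0.39, adjusted p = 0.869) in sgBap1 mice. With 9 mice Pnpla2 fell by 0.87 in NTC mice (SE 0.10, adjusted p = 4.15e-05) and by 0.53 in sgBap1 mice (SE 0.11, adjusted p = 0.00250). That 1 library thus set the direction in sgBap1 mice and the call in both genotypes. All 3 sgBap1-CCl4 mice were above all NTC-CCl4 mice and both sgBap1-Veh mice were below both NTC-Veh mice. These differences were not called (with vehicle -0.17, adjusted p = 0.930, and with CCl4 0.78, adjusted p = 0.383). Without the mouse with fat-cell transcripts the value with CCl4 was 0.17 (adjusted p = 0.637), which is 1.12-fold in place of 1.72-fold. The interaction was not called either (0.95, SE 0.55, adjusted p = 0.611, and 0.34, SE 0.15, adjusted p = 0.452 with 9 mice).

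Abhd5 (ENSMUSG00000032540.16, chromosome 9 from 122351608 to 122381524), the co-activator, was at 36.8 and 34.2 CPM in NTC-Veh, 28.5 and 31.4 CPM in sgBap1-Veh, 51.6, 35.4 and 53.9 in NTC-CCl4 and 42.7, 40.8 and 34.7 CPM in sgBap1-CCl4 mice. The sgBap1-CCl4 mice were above the sgBap1-Veh mice, and the NTC groups overlapped through the 1 NTC-CCl4 mouse at 35.4 CPM. Both responses missed the threshold, at 0.40 (SE 0.17, adjusted p = 0.0651) in NTC and 0.40 (SE 0.17, adjusted p = 0.0675) in sgBap1 mice. Without NTC-CCl4 replicate 2 they passed it, at 0.57 (adjusted p = 0.00239) and 0.40 (adjusted p = 0.00951), and that in sgBap1 mice also without sgBap1-CCl4 replicate 3, at 0.47 (adjusted p = 0.0481), and in a fit of the sgBap1 groups alone, at 0.39 (adjusted p = 0.0282). With library size alone both were called, at 0.88 in NTC mice (adjusted p = 0.00201) and 0.88 in sgBap1 mice (adjusted p = 0.00194). With 9 mice they were 0.41 (adjusted p = 0.0750) and 0.37 (adjusted p = 0.131). The guide with CCl4 gave -0.25 with 10 mice (adjusted p = 0.494) and -0.28 with 9 (adjusted p = 0.658). The ratio of Abhd5 to Pnpla2 per kilobase was 0.185 to 0.218 in the vehicle mice and 0.326 to 0.623 in the CCl4 mice, except in the mouse with fat-cell transcripts, where it was 0.152. An antisense gene, A730085K08Rik, shares 950 exon bases with Abhd5 and was at most at 0.188 CPM.

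G0s2 (ENSMUSG00000009633.3, chromosome 1 from 193272161 to 193273217), which overlaps Lamb3 on the other strand without sharing exon bases, was at 22.5 and 32.9 CPM in NTC-Veh, 38.1 and 50.8 CPM in sgBap1-Veh, 20.3, 28.6 and 13.0 in NTC-CCl4 and 12.5, 22.2 and 18.0 CPM in sgBap1-CCl4 mice. The sgBap1-Veh mice were the highest of all 10, and the NTC groups overlapped. CCl4 lowered it in sgBap1 mice by 1.34 (SE 0.35, adjusted p = 0.0108), or by 1.54 (SE 0.39, adjusted p = 0.0147) with 9 mice, and the call was lost without sgBap1-Veh replicate 2 (log2 -1.12, adjusted p = 0.0741) and when libraries were scaled by size alone (log2 -0.84, adjusted p = 0.0733). In NTC mice the value was -0.42 (SE 0.35, adjusted p = 0.347), and with library size alone it was 0.04. The interaction was -0.92 (SE 0.50, adjusted p = 0.583), and with vehicle the guide gave 0.68 (SE 0.39, adjusted p = 0.544). With 9 mice the value in NTC mice was -0.42 (adjusted p = 0.353) and the interaction -1.13 (adjusted p = 0.517). With CCl4 the guide gave -0.24 with 10 mice (adjusted p = 0.799) and -0.44 with 9 (adjusted p = 0.749). The ratio of the lipase Pnpla2 to its inhibitor per kilobase was 0.417 and 0.592 in sgBap1-Veh mice and 0.865, 1.18 and 1.77 in sgBap1-CCl4 mice, with no overlap. In NTC mice it was 0.699 and 1.17 with vehicle and 0.512, 0.596 and 1.06 with CCl4, with overlap.

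The guide alone, in uninjured liver, left all 10 genes without a call. In sgBap1-Veh against NTC-Veh mice edgeR's test called 0 of them, while 0.364% of all genes were called higher and 0.159% lower. Of the 10, 0 had an unadjusted p under 0.05, against 2139 of all 17015 genes. DESeq2 also called 0, against 532 of all genes, with 1 at an unadjusted p under 0.05, against 2070 of all genes. With 9 mice edgeR's test again called 0, against 0.654% and 0.238% of all genes. The mice of the groups did not overlap for 5 of the 10 genes, Plin4 and G0s2 higher and Plin5, Pnpla2 and Abhd5 lower, which compares with 40.9% of all genes. In sgBap1-CCl4 against NTC-CCl4 mice edgeR's test called 0 with 10 mice (0.147% of all genes higher and 0.106% lower). Plin4, Plin5 and Cidea had an unadjusted p under 0.05, as had 2288 of all 17015 genes. The Cidea value (log2 4.51) rests on the mouse with fat-cell transcripts, at 1717 counts against 17 to 21 in the other CCl4 mice. Without that mouse it was -0.44. With 9 mice edgeR's test called Plin4 higher, where 0.0892% of all genes were higher and 0.0416% lower. DESeq2 called Plin4 in both, against 1.19% of all genes higher with 10 mice and 0.588% with 9. For 2 genes, Plin4 and Pnpla2, all sgBap1-CCl4 mice were above all NTC-CCl4 mice, and for all genes the share without overlap was 20.3%. The guide comparisons and the CCl4 comparisons use the same mice in part, so they are not independent of each other.

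Whether the guide altered the response to CCl4 was tested as the interaction. edgeR's test called 0 of the 10 genes, with Plin4 and Plin5 at an unadjusted p under 0.05, and 0% of all genes, of which 1796 had an unadjusted p under 0.05. With 9 mice it again called 0 of the 10, and 0.0713% of all genes. DESeq2 called 402 genes over the whole table with 10 mice and 0 of these, 3 of which had an unadjusted p under 0.05, and it gave no p for Cidea. The 2-SE range of the interaction was -0.47 to 0.48 for Plin2, -0.58 to 0.34 for Cideb and -0.48 to 0.46 for Abhd5 on the log2 scale. It was wider for Cidec (-3.16 to 3.33), where the vehicle counts are low.

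The wider pathway was described with 26 further genes, 12 of triglyceride synthesis and droplet formation, 7 lipases and their regulators and 7 other droplet surface proteins, of which 25 were tested. With CCl4, 2 of the 25 were called higher and 12 lower in NTC mice, where 27.5% and 26.3% of all genes were called higher and lower. In sgBap1 mice 3 were higher and 15 lower, against 29.0% and 27.7%. The median log2 fold changes were -0.58 and -0.55, against 0.03 and 0.04 over all genes. With 9 mice the counts were 2 higher and 14 lower in NTC mice (28.2% and 27.0% of all genes). In sgBap1 mice they were 3 higher and 18 lower (26.4% and 25.6%). With library size alone 6 were higher and 5 lower in NTC mice, against 8462 and 2030 of all 17015 genes. In sgBap1 mice 6 were higher and 8 lower, against 8596 and 2350. The medians were -0.10 against 0.50 over all genes and -0.07 against 0.52. Under that scaling lower calls no longer outnumbered higher ones in NTC mice, while both medians stayed below those of all genes. By the rule for naming them, Dgat2, which makes triglyceride from diacylglycerol, fell from 637 and 660 CPM in NTC-Veh to 172 to 221 CPM in NTC-CCl4 mice (log2 -1.76, SE 0.13, adjusted p = 3.69e-06) and from 689 and 701 to 170 to 203 CPM in sgBap1 mice (-1.90, SE 0.13, adjusted p = 2.39e-06). Mgll, the lipase of monoglyceride, fell from 235 and 271 to 80.7 to 91.4 CPM in NTC mice (-1.58, SE 0.12, adjusted p = 3.71e-06) and from 218 and 272 to 63.6 to 69.7 CPM in sgBap1 mice (-1.88, SE 0.12, adjusted p = 1.48e-06). Lpin1, a phosphatidate phosphatase of the same synthesis pathway, was at 401 and 227 CPM in NTC-Veh and at 37.6, 47.4 and 30.3 CPM in NTC-CCl4 mice (-3.03, SE 0.29, adjusted p = 3.07e-05). In sgBap1 mice it was at 272 and 321 CPM with vehicle and at 89.9, 80.2 and 128 CPM with CCl4 (-1.58, SE 0.28, adjusted p = 0.00120). For these 3 genes the CCl4 and vehicle mice did not overlap in either genotype.

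In the guide comparisons edgeR's test called 0 of the 25 with 10 mice. DESeq2 with 10 mice called 3 of them higher with vehicle and 1 higher with CCl4. Over all 17015 genes it called 383 and 202 higher. Without a filter, edgeR's test called 1 higher with vehicle, against 129 of all 27948 genes. With 9 mice edgeR's test called 1, Pnpla3, a lipase relative on droplets, in sgBap1-Veh against NTC-Veh (log2 2.87, SE 0.44, adjusted p = 0.0332). Of all genes, 0.654% were called higher there. Its level was 2.31 and 1.41 CPM in the NTC-Veh mice against 16.9 and 10.2 CPM in those with the Bap1 guide, and it was named after these values were seen. Lipe, the hormone-sensitive lipase of fat cells, was at 56.5 CPM in the mouse with fat-cell transcripts and at 7.12 and 8.20 CPM in the other sgBap1-CCl4 mice. Plin1, the perilipin of fat cells, failed the filter on low counts, with at most 1 count in the other 9 mice.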

How the data were processed

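The authors made stranded polyA libraries from the livers of 10 mice, sequenced them as read pairs, aligned them to GRCm38 with STAR 2.7.6a and quantified GENCODE vM25 genes with Salmon 1.4.0, as the study's methods and the submitters' processing notes give it. The deposited values are Salmon's estimated counts (expected counts) per gene symbol, without normalization, and 9.22% of them are not whole numbers. After rounding, edgeR 4.0.16 under R 4.3.3 was used, with filterByExpr over the 4 groups (17015 genes), TMM, and 1 quasi-likelihood model (glmQLFit, robust) of the 4 groups, two-sided, with Benjamini-Hochberg adjustment over all genes tested and a threshold of 0.05. An SE is the log2 fold change divided by the square root of its F statistic.

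All 10 columns were matched to samples by their labels, and 0 columns were left out. The members and gene lists were chosen with earlier results of these data known. Named genes are the 10 members, Bap1 and, of the wider list, genes called between genotypes plus, for each CCl4 comparison, the 3 called genes with the largest change among those with a mean of at least 10 CPM. The alternatives were DESeq2 size factors, library size alone, no filter, a block for the replicate number, a stricter filter (mean of 10 counts or more), DESeq2 1.42.0 (the study's tool), the 2 groups alone and each mouse left out. DESeq2 on 9 mice was added after the values were seen. Same-numbered mice of different groups deviated from their group means with correlations of -0.194 to 0.125, and differently numbered mice with -0.230 to 0.230. In a group of 2 the deviations mirror each other, so these values cannot settle whether the numbers pair the mice. The main fit used no pairing. Replicates of a group differed by a mean chi-square of at least 14.8 per gene, so none is a repeated library. Positions, exon lengths and overlaps come from GENCODE vM21, and promoters from RefSeq (GRCm38.p6). Of the 50-base stretches of these genes' transcripts, at most 2.57% (Plin2, with Gm12551) occur in another gene. The fits were tested on simulated counts.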

Additional observations from a re-analysis of the deposited data

Results flagged for a closer look

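The liver of sgBap1-CCl4 replicate 2 held transcripts of fat cells that are outside the comparisons: Adipoq at 36.4 CPM, Plin1 at 34.5, Retn at 17.7, Cfd at 144, Acvr1c at 3.68 and Ucp1 at 83.9 CPM, each with at most 5 counts in the other 9 mice. Pnpla2 was flagged because its values under the guide had opposite signs in uninjured and injured liver, although neither difference was called. Both sgBap1-Veh mice were below both NTC-Veh mice, and all 3 sgBap1-CCl4 mice were above all 3 NTC-CCl4 mice. Of all genes, 40.9% with vehicle and 20.3% with CCl4 were also without overlap. For Pnpla2 the guide gave -0.17 with vehicle and 0.78 with CCl4, the latter being 0.17 without sgBap1-CCl4 replicate 2. The interaction was 0.95 on the log2 scale (SE 0.55, edgeR adjusted p = 0.611) and was not called, and without replicate 2 it was 0.34 (SE 0.15, adjusted p = 0.452).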

How the results depend on the processing

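The number of lipid droplet genes called, with Cidea left out unless stated, changed in these cases. In sgBap1-CCl4 against NTC-CCl4 mice it was 0, but 1 (Plin4) with DESeq2, 1 with DESeq2 on 9 mice, chosen after seeing the data, and 0 to 1 with a mouse left out, the 1 being without sgBap1-CCl4 replicate 2. For CCl4 in NTC mice it was 5, and 4 to 6 with a CCl4 mouse left out, the 4 being without NTC-CCl4 replicate 3. For CCl4 in sgBap1 mice it was 5. With Cidea counted, it was 5 to 7 with a CCl4 mouse left out. The count of 7, without sgBap1-CCl4 replicate 2 or 3, includes Cidea. Without replicate 2 it was 6 when Cidea was left out. With library size alone it was 8 with Cidea counted, 7 higher, Cidea among them, and 1 lower. The median of all genes was 0.52 there. Pnpla2 in sgBap1 mice turned from 0.08 to -0.53 without sgBap1-CCl4 replicate 2 and to -0.54 with DESeq2 on 9 mice, and over the mice left out it ran from -0.53 to 0.32.

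Over the 889 single values under an alternative, 811 kept their direction and side of the threshold, 9 lost a call, 22 gained one and 2 reversed, and 45 more changed sign without a call in either fit. With the replicate number as a block the counts of called lipid droplet genes were 0, 0, 4, 5 and 0, in the order sgBap1-Veh against NTC-Veh, sgBap1-CCl4 against NTC-CCl4, CCl4 in NTC, CCl4 in sgBap1 and interaction, the one lost being Plin3 in NTC mice (0.35, adjusted p = 0.0762). Over all genes, the call counts of 89 (vehicle), 43 (CCl4) and 0 (interaction) were 532, 486 and 402 with DESeq2, 177, 113 and 103 without a filter, and 1, 3 and 0 with the block. With library size alone the vehicle and interaction counts were 47 and 8, and with the 2 groups alone the vehicle count was 35. Where a vehicle mouse is left out, the lone mouse of its group is assumed to vary like the other groups. Cidea and Cidec have few counts in the vehicle mice, which limits their fold changes. The 889 single values and the 22 gained calls include Cidea with CCl4, which is not read as a result because of the filter.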
